A study of Mus musculus with 24 samples.

Results

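GW9662 added together with interleukin-4 (IL-4) for 24 h was compared with IL-4 alone for 24 h in mouse bone marrow-derived macrophages, over the genes whose averaged level reached at least 1 CPM (reads of a gene scaled to the size of its library) in either group. This rule kept 10867 of the 23420 genes in the table. The lowest level kept was 1.000 CPM (Agmo) and the highest level left out was 0.999 CPM (AY358078). The marrow cells came from male C57BL/6 mice aged 3 months and were grown for 6 days with M-CSF. For 24 h they were then given vehicle (DMSO and ethanol), IL-4, GW9662 or both agents, with 2 samples in each of the 4 groups, and the labels name no genotype for these groups beyond the strain. The labels give no dose of GW9662. Their 20 ng per µl of IL-4 is printed as labelled, and stands in a treatment text that describes the other experiment of the series. No label ties the samples of a group to separate mice or cultures. A p-value here thus measures only how far these samples spread, and that spread may be technical.

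IL-4 signals through the IL-4 receptor and JAK kinases to the transcription factor STAT6, and drives macrophages into the alternative state marked by genes such as Retnla, Arg1 and Chi3l3. PPARγ, encoded by Pparg, is a nuclear receptor for fatty acid ligands. It binds DNA as a dimer with RXR at repeats of the hexamer AGGTCA and switches on genes of lipid uptake, storage and oxidation. GW9662 binds covalently in the ligand pocket of PPARγ and blocks activation by ligands. The title of the series calls the PPARγ of these cells insensitive to ligand, and the comparison asks how far a blocked ligand pocket alters what IL-4 does to RNA levels.

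The promoters of 3 genes to which the results return show which elements lie just upstream of their starts. Each window holds the 250 bases before the start, printed on the gene's own strand from RefSeq (GRCm38.p6). Retnla, a secreted effector of IL-4, lies at chr16:48842359-48842608 on the plus strand. It is the only measured PPARγ target or IL-4 marker matched whose window held both AGGTCA and the STAT6 spacing (TTC, 4 bases of any kind, GAA), both in capitals.
Retnla: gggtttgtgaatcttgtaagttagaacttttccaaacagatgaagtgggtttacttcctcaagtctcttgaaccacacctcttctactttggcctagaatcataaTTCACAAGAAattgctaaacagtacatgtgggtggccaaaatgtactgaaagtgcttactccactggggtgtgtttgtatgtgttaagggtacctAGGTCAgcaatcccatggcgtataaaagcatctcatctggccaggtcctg
Cd36, the fatty acid scavenger receptor and a classical PPARγ target, lies on the minus strand with its window at chr5:17835897-17836146. Capitals mark the AGGTCA hexamer, read here from the opposite strand.
Cd36: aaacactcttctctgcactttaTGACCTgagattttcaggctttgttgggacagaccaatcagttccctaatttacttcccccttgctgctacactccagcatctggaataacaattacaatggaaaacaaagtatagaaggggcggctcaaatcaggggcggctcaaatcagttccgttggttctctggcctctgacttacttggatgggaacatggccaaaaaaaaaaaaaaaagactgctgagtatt
Isg15, a ubiquitin-like protein induced by interferon, lies on the minus strand with its window at chr4:156200819-156201068. Capitals mark overlapping matches to the interferon-response spacing (GAAA, 2 bases of any kind, GAAA), a motif that was chosen after the values of these genes were seen.
Isg15: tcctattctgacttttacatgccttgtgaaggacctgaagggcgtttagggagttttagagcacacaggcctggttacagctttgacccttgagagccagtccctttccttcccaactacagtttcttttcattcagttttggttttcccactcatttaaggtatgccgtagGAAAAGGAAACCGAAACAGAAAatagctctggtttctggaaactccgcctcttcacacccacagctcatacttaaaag
Searched on both strands, AGGTCA was present in 14.0% of 32851 windows of the same length, the STAT6 spacing in 5.85%, both in 0.846% and the interferon-response spacing in 2.98%. Of the 24 measured PPARγ targets, 15 matched the RefSeq table, with 18 windows. AGGTCA was held by 4 of these windows (22.2%), those of Acadm, Cd36, Cpt1a and Plin2. A match is a description of the letters and not of a bound site.

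The deposited columns are means of 2 libraries, and were separated into the values of the single libraries through the size of 1 read in each. This gave a value for every library of both groups for 10740 of the 10867 genes. The other 127, which reach 1004 CPM or more in at least 1 group, have a mean only. The separated IL-4 libraries correspond to 21741720 and 16573275 reads and the IL-4 plus GW9662 libraries to 22544018 and 20656183, so that 3 reads equal 0.133 to 0.181 CPM. Genes that share sequence with other genes read higher in 1 library of each of these groups than in the other. Over 211 such genes the median log2 of CPM plus 1 was 5.25 and 4.02 with IL-4, and 5.28 and 3.99 with both agents. The labels do not say which processing gave this. The text calls the library with the higher values full-count and the other reduced-count. A pair of the same kind is called the full-count pair or the reduced-count pair. The reduced-count IL-4 library stood apart. Over 8499 genes of at least 5 CPM that are not sensitive to counting, the IL-4 libraries differed from each other with an SD of 0.45 (log2). It was 0.20 in the IL-4 plus GW9662 group and 0.19 with vehicle, each also with 1 library of each kind. Between the libraries with GW9662 alone, both reduced-count, it was 0.13. Genes were taken as sensitive to counting if they share sequence with other genes or if their vehicle libraries differed by more than 2-fold. The SD of vehicle was thus held low in part by this choice. Over 8902 genes, with the sensitive ones kept, the SD was 0.71 with IL-4, 0.60 with both agents and 0.58 with vehicle. In the reduced-count pair the median log2 ratio was -0.20 among the 2118 genes with the shortest transcripts and 0.14 among the 2117 with the longest. It was 0.40 among the 2122 with the lowest GC content and -0.26 among the 2113 with the highest. In the full-count pair these medians ran the opposite way and were smaller, at 0.07, -0.07, -0.10 and 0.10. Results below are therefore given for both pairs, and the full-count pair is the value without the library that stood apart. The part of transcript length and GC content in the results was not tested.

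RNA of macrophages was present in both groups. All 7 of the macrophage markers found in the table were at 44.8 CPM or more, with Lyz2 at 6409 CPM with IL-4 and 6575 CPM with both agents. The defining markers of T and NK cells, B cells, red cells and fibroblasts or endothelium were all under 1 CPM. In the wider lists for these cell types, Cd4 stood at 1.62 and 1.44 CPM, Cd79b at 2.69 and 2.61 CPM, Pecam1 at 21.7 and 23.6 CPM, and Pdgfrb at 1.21 and 0.984 CPM. Of other cell types, 4 of 4 neutrophil and progenitor markers in the table were measured, summing to 154 and 168 CPM in the same order. The 3 dendritic cell markers summed to 4.27 and 4.92 CPM, and Prg2, an eosinophil granule protein, stood at 5.12 and 4.97 CPM. In bulk samples, fewer cells of a type and less RNA per cell cannot be told apart.

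The addition of GW9662 left the profile of IL-4-treated cells with no gene past the test. Limma, fitted to all 8 libraries with Benjamini-Hochberg adjustment, called 0 of 10867 genes (0% of those tested). An unadjusted p under 0.05 was seen for 0 genes, with a smallest unadjusted p of 0.0504. Evenly spread p-values would put a share of 0.05 of all genes under that level. The fit was thus conservative, and its 0 calls, here and in the lists below, cannot show that no gene changed. In limma without group weights 37 genes had an unadjusted p under 0.05, and 0 were called. By the ratio of the authors' means with 1 CPM added to each, 1 gene was beyond 2-fold higher with GW9662 (0.0092%) and 0 genes were beyond 2-fold lower (0%). The median log2 ratio of all genes was 0.00. Of 10740 genes with separated libraries, 660 (6.15%) had both IL-4 plus GW9662 libraries above both IL-4 libraries, and 552 (5.14%) had both below. For scale, the same fit called 1051 genes higher and 830 lower for IL-4 against vehicle.

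**Figure D1:**
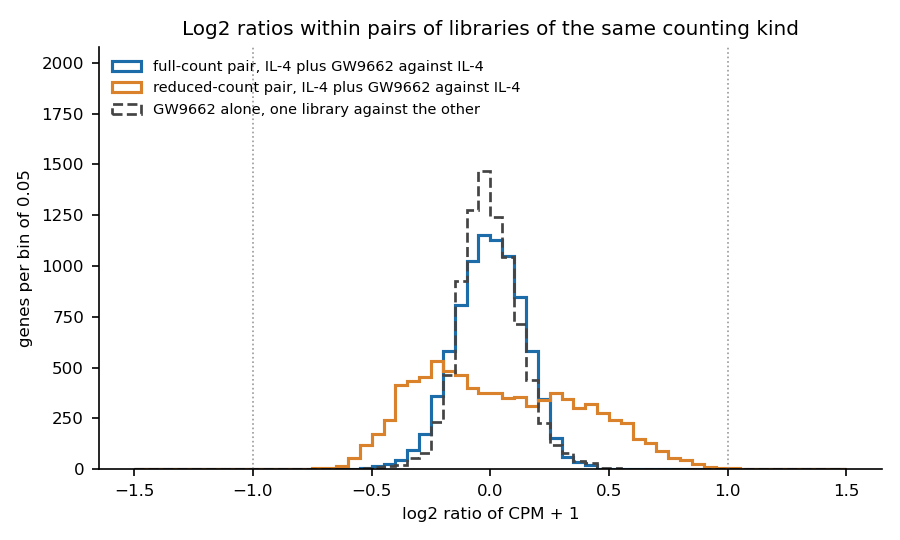
Number of genes (of 8499) per bin of log2 ratio of CPM plus 1 between 2 libraries of the same counting kind. The full-count pair of IL-4 plus GW9662 against IL-4 (SD 0.14) is about as narrow as the 2 libraries with GW9662 alone against each other (SD 0.13), and the reduced-count pair (SD 0.34) is wider. Dotted lines mark 2-fold.

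Precision was limited mainly by the IL-4 group, whose weight in the fit was 0.204 against 1.24 to 2.73 for the others. The 95% interval lay within 2-fold either way for 9329 of 10867 genes, and within 1.5-fold for 3899. With counting kind as a term, limma again called 0 of 10719 genes (0%). Of these, 17 had an unadjusted p under 0.05, and the interval lay within 2-fold for 10576. With that term and without the reduced-count IL-4 library, it lay within 2-fold for 10704 and within 1.5-fold for 9671. In that last fit, added after the data were seen, the IL-4 group has 1 library that is assumed to vary like the others. In the full-count pair 0 of the 8499 genes were beyond 2-fold, and in the reduced-count pair 8 were higher and 0 lower.

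Pparg, the gene of the receptor that GW9662 binds, read 132 CPM in the full-count and 78.7 CPM in the reduced-count IL-4 library. With GW9662 added, the libraries read 132 and 126 CPM in the same order. The full-count libraries were equal, and the reduced-count IL-4 library was the lowest of the 4. The means were 105 and 129 CPM, and limma gave a log2 difference of 0.34 (95% interval -0.13 to 0.80, unadjusted p = 0.132). The log2 ratio was 0.00 in the full-count pair and 0.67 in the reduced-count pair. Without GW9662 or IL-4, Pparg stood at 29.6 and 28.9 CPM with vehicle, and at 28.0 and 27.6 CPM with GW9662 alone.

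Among the partners and co-regulators of PPARγ, 24 of 27 listed genes were measured. Of these 0 passed the test and 0 were beyond 2-fold. The groups were free of overlap in 0 of them, beside 6.15% of all genes higher and 5.14% lower. The list median was 0.02. Rxra, the obligate partner, read 147 and 188 CPM with IL-4 and 149 and 178 CPM with both agents, full-count library first. The counting kinds differed more than the treatments did. Ppargc1b, a coactivator of mitochondrial genes that IL-4 raises, read 21.4 and 24.6 CPM with IL-4 and 20.6 and 21.8 CPM with both, against a mean of 1.80 CPM with vehicle. Without the library that stood apart, all 24 genes had 95% intervals within 1.5-fold.

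Of the 36 listed PPARγ target genes, 24 were measured, and 0 passed the test or were beyond 2-fold. Their median log2 ratio was -0.07, against 0.00 for all genes, with 9 of 24 above 0. In the full-count pair the median was 0.04 and 13 of 21 were above 0, and in the reduced-count pair it was -0.21 with 7 of 21 above 0. So the list lay on opposite sides of 0 in the 2 pairs. Ratios of the means ran from -0.27 (Hilpda) to 0.22 (Fabp4). The limma interval lay within 2-fold for 21 of 24, and without the reduced-count IL-4 library it lay within 1.5-fold for 19 of 21.

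Fabp4, the fatty acid carrier that is the most used readout of PPARγ in macrophages, read 34.5 CPM in the full-count and 19.1 CPM in the reduced-count IL-4 library. With GW9662 it read 31.7 and 31.1 CPM. Only the reduced-count IL-4 library stood below the rest, and the log2 ratio was -0.12 in the full-count pair and 0.68 in the reduced-count pair. The limma difference was 0.28 with a 95% interval of -0.78 to 1.34, which reaches past 2-fold on the high side. Without the library that stood apart it was 0.05 (-0.25 to 0.36).

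Cd36, whose promoter window is printed above, showed the same arrangement. It read 1129 and 557 CPM with IL-4 and 1015 and 894 CPM with both agents, full-count library first. The full-count library was lower with GW9662 by a log2 ratio of -0.15, and the reduced-count library was higher by 0.68. Without the library that stood apart the difference was -0.17 (95% interval -0.34 to 0.01). Acadm, which starts the oxidation of medium-chain fatty acids and also holds AGGTCA upstream, read 51.9 and 25.6 CPM against 44.9 and 42.9 CPM. In all of Fabp4, Cd36 and Acadm the lowest library was the reduced-count IL-4 library.

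**Figure D2:**
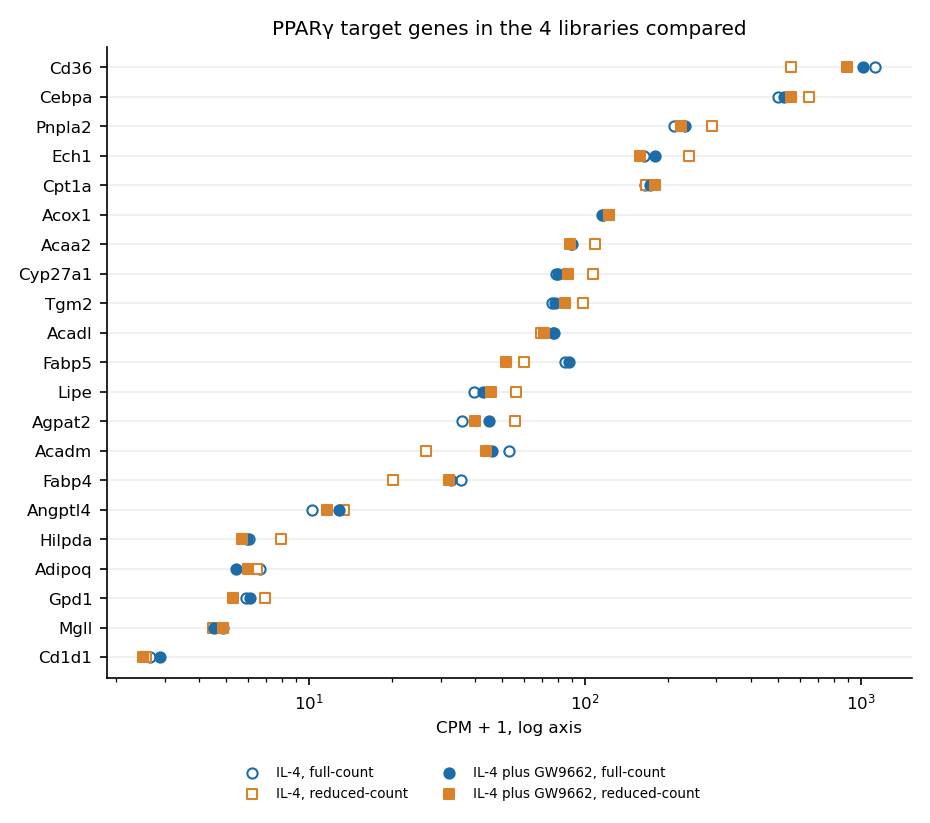
CPM plus 1 on a log axis for the 21 PPARγ targets with separated values, in each of the 4 libraries compared. Circles are full-count and squares reduced-count libraries, open for IL-4 and filled for IL-4 plus GW9662. For Fabp4 the open square (19.1 CPM) lies below the other 3 libraries (31.1 to 34.5 CPM).

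The groups did not overlap for 3 of the targets. Adipoq, the adipocyte hormone adiponectin, read 5.61 and 5.49 CPM with IL-4 and 4.45 and 5.01 CPM with both agents. Hilpda, an inhibitor of triglyceride breakdown, read 5.06 and 6.94 CPM against 4.94 and 4.70 CPM. Both were lower in each library with GW9662, with log2 ratios of -0.19 and -0.27. Cpt1a, the entry enzyme of mitochondrial fatty acid oxidation, was slightly higher, at 164 and 165 CPM against 172 and 179 CPM. These shares, 1 of 21 higher and 2 of 21 lower, stand beside 6.15% and 5.14% of all genes. None of the 3 passed the test, with limma intervals of -0.83 to 0.44, -0.81 to 0.31 and -0.22 to 0.40 in the order named.

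Angptl4, a lipoprotein lipase inhibitor, read 9.24 and 12.4 CPM with IL-4 and 11.9 and 10.6 CPM with both agents, so that the groups overlapped. Its vehicle libraries read 24.6 and 16.8 CPM and its libraries with GW9662 alone 24.9 and 22.3 CPM. Plin2, the coat protein of lipid droplets, had means of 1129.5 CPM with IL-4 and 1045 CPM with both, and could not be separated. Lpl and Ucp2, a lipase of lipoproteins and a mitochondrial carrier, had log2 ratios of means of 0.05 and -0.01. The targets not named so far had ratios from -0.26 (Ech1) to 0.05 (Cd1d1), and the limma interval of each of the 24 held 0. In the added fit without the library that stood apart, the unadjusted intervals of Angptl4 (0.15 to 0.69) and Agpat2 (0.08 to 0.47) lay above 0 and that of Acadm (-0.41 to -0.00) below it, and 0 of the 21 targets fitted passed after adjustment.

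**Figure D3:**
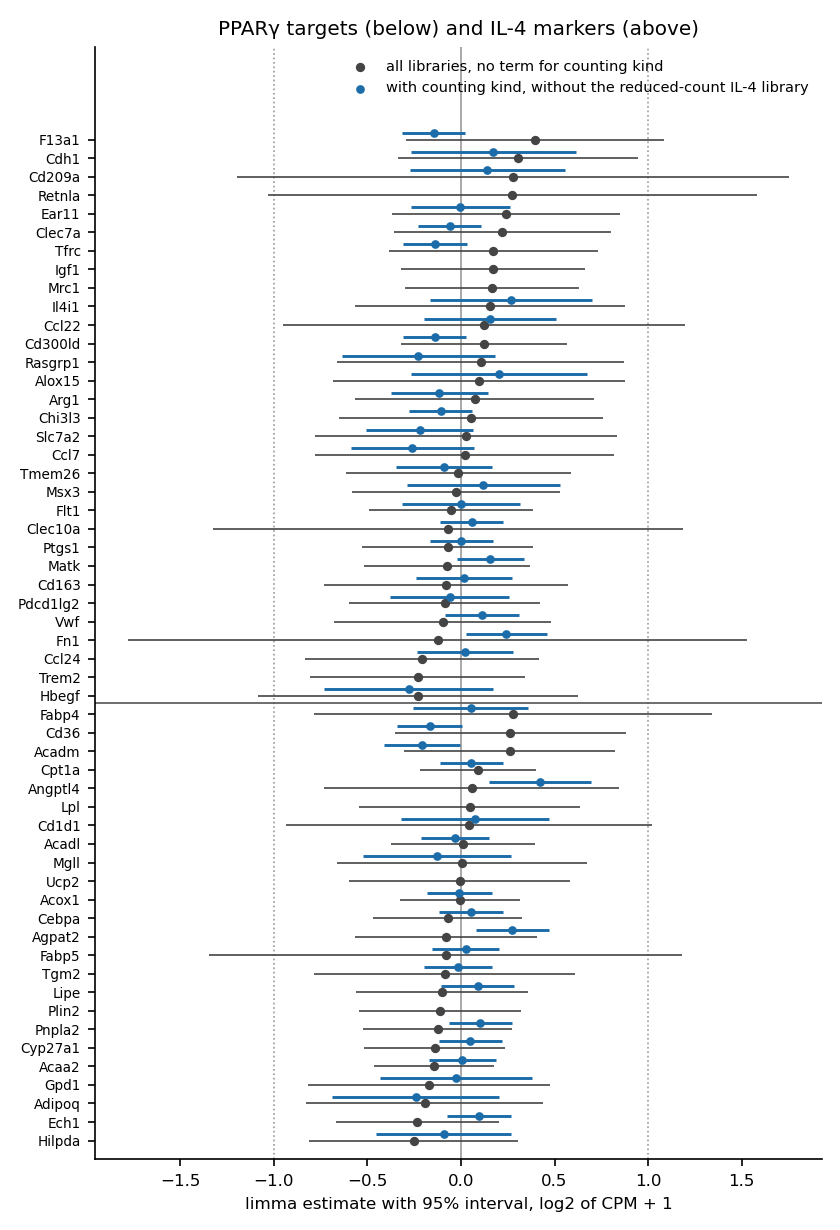
Limma difference of IL-4 plus GW9662 from IL-4 (log2 of CPM plus 1) with its 95% interval for PPARγ targets (below the line) and IL-4 markers (above it), leaving out markers sensitive to counting. Dark points use all libraries, and blue points the added fit with counting kind and without the reduced-count IL-4 library. Every dark interval crosses 0, and the blue interval of Angptl4 (0.15 to 0.69) does not. Dotted lines mark 2-fold.

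No gene that marks the IL-4 state passed the test when GW9662 was added. Of 34 measured IL-4 and STAT6 markers, 0 passed the test and 0 were beyond 2-fold, with a median log2 ratio of 0.02, -0.03 in the full-count and 0.01 in the reduced-count pair. Over the same genes the median log2 ratio of IL-4 against vehicle was 2.92. Arg1, which splits arginine to ornithine and urea, read 865 and 685 CPM with IL-4 and 807 and 813 CPM with both agents. Both libraries with GW9662 lay between the IL-4 libraries. Its vehicle mean was 0.146 CPM, and the limma difference for GW9662 was 0.07 (95% interval -0.56 to 0.71).

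Retnla, the gene with both elements in its promoter, had means of 18412.5 CPM with IL-4 and 22256 CPM with both agents, and its libraries could not be separated. The log2 ratio of 0.27 had a limma interval of -1.03 to 1.58, which is too wide to place it within 2-fold. Chi3l3, a chitinase-like secreted protein, read 1078 and 737 CPM against 942 and 907 CPM, again with the libraries of both agents inside the range of IL-4 alone. Ear11, an eosinophil-associated ribonuclease, read 680 and 456 CPM against 699 and 619 CPM. Reads of such gene families can be shared between near-identical copies, and these values are uncertain to that extent. Mrc1, the mannose receptor, had means of 1152 CPM with IL-4 and 1290.5 CPM with both agents.

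The markers at the ends of the list differed mostly in the reduced-count pair. F13a1, the clotting factor XIII subunit that IL-4 lowers in these cells, read 47.2 and 24.3 CPM with IL-4 and 39.9 and 50.5 CPM with both agents. Its log2 ratio was -0.24 in the full-count and 1.03 in the reduced-count pair. Ccl24, an eosinophil chemoattractant, read 121 and 172 CPM against 122 and 128 CPM, with ratios of 0.01 and -0.43. In both genes the library that differed from the other 3 was the reduced-count IL-4 library. Cdh1, E-cadherin, was the only one of 29 separated markers whose groups did not overlap, beside 6.15% of all genes higher and 5.14% lower, at 3.54 and 2.96 CPM against 4.21 and 4.26 CPM, and its limma interval was -0.34 to 0.94.

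Upstream of these genes, 19 of 21 listed members of IL-4 signalling were measured, 0 passed, and the median was -0.03. Stat6 itself read 330 and 359 CPM with IL-4 and 335 and 343 CPM with both agents. Il4ra, the receptor chain, read 164 and 232 CPM against 161 and 200 CPM. The feedback inhibitors Socs1 and Cish, both raised by IL-4, read 107 and 160 CPM against 123 and 131 CPM, and 140 and 208 CPM against 154 and 161 CPM. Their values with GW9662 lay inside those with IL-4 alone. Il13ra1, a chain of the shared IL-4 and IL-13 receptor, was higher in both libraries with GW9662, at 1.31 and 1.55 CPM against 1.10 and 0.664 CPM, with a limma interval of -0.34 to 1.09. All 19 genes had intervals within 1.5-fold without the library that stood apart.

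Of 18 measured transcription factors of the IL-4 response, 0 passed the test and the median was 0.02. Egr2, a factor induced early by IL-4, read 381 and 382 CPM with IL-4 and 396 and 386 CPM with both agents. Irf4 read 171 and 170 CPM against 171 and 176 CPM. Both factors had groups that did not overlap, with the libraries of each close together. Of 17 separated factors, 3 were free of overlap and higher with GW9662, beside 6.15% of all genes. In the lower direction there were 0, beside 5.14%. Nr4a1, an early orphan receptor, had the highest ratio of this list at 0.23, with 4.09 and 5.25 CPM against 6.29 and 5.01 CPM, and its groups overlapped.

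Metabolic and functional groups gave the same count of 0 past the test. The medians were 0.08 for 23 genes of fatty acid oxidation, -0.04 for 27 of glycolysis and the citrate cycle, -0.09 for 19 LXR targets, -0.01 for 20 of sterol synthesis and -0.01 for 13 of arginine and polyamine metabolism. They were 0.01 for 12 cell fusion genes, -0.03 for 24 matrix and clotting genes and -0.07 for 13 class II presentation genes. Several of these took opposite signs in the 2 pairs. Class II genes had 0.18 in the full-count and -0.31 in the reduced-count pair, and glycolysis had 0.06 and -0.19. Abcg1, the cholesterol exporter, was above in both libraries with GW9662, at 902 and 927 CPM against 849 and 902 CPM. H2-DMa, which loads peptide onto class II molecules, read 471 and 774 CPM with IL-4 and 548 and 533 CPM with both. Cd80, a costimulatory ligand, was higher in both libraries, at 1.94 and 1.73 CPM against 1.06 and 1.21 CPM, with a limma interval of -0.19 to 1.01.

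**Figure D4:**
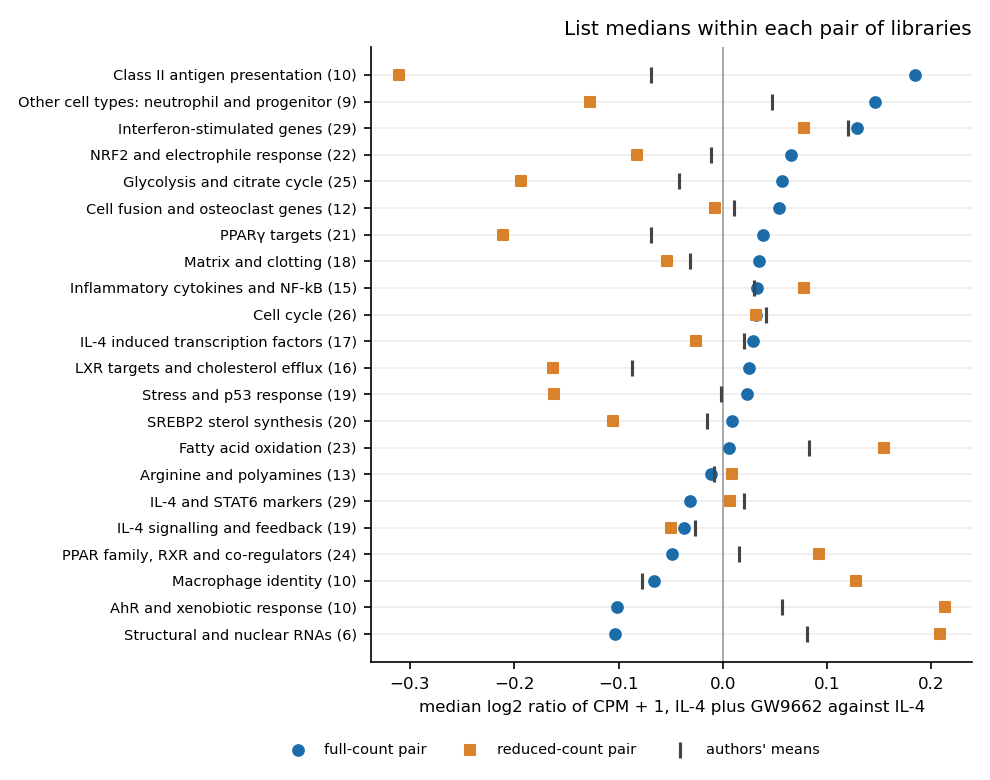
Median log2 ratio of CPM plus 1 for each list with at least 6 separated members (their number in brackets), for the authors' means, the full-count pair and the reduced-count pair. The interferon-stimulated genes have 0.12, 0.13 and 0.08, and the class II genes have -0.07, 0.18 and -0.31.

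GW9662 reacts with thiols, and genes of the electrophile response were therefore listed. Of 24 measured NRF2 targets 0 passed, the median was -0.01, and the groups were free of overlap for 2 of 22 separated genes, both lower with GW9662, beside 5.14% of all genes. Nqo1, a quinone reductase, read 14.5 and 15.1 CPM with IL-4 and 12.9 and 12.2 CPM with both agents. Srxn1, which repairs oxidised peroxiredoxins, read 201 and 204 CPM against 197 and 194 CPM. The stress and p53 list (20 genes, median 0.00), the cell cycle list (26 genes, median 0.04) and the macrophage identity list (20 genes, median -0.08) also had 0 genes past the test. So did 15 inflammatory and NF-kB genes (median 0.03) and 10 genes of the xenobiotic response (median 0.06). Ccl2, a monocyte chemoattractant and the highest of the inflammatory list, read 17.9 and 9.53 CPM with IL-4 and 17.9 and 17.8 CPM with both agents, so that it differed in the reduced-count pair only.

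The interferon-stimulated genes, which encode antiviral proteins switched on by interferon, lay to the high side in both pairs, though 0 of 29 measured members passed limma on all libraries and 0 were beyond 2-fold. Their median log2 ratio was 0.12 against 0.00 for all genes, with 23 of 29 above 0. In the full-count pair 24 of 29 were above 0 with a median of 0.13, where all genes had 5326 of 10740 and 0.00. In the reduced-count pair 18 of 29 were above 0 with a median of 0.08, where all genes had 5635 of 10740 and 0.02. Both libraries with GW9662 stood above both IL-4 libraries for 10 of 29 members, beside 6.15% of all genes, and below for 0 of 29, beside 5.14%. Members share regulators and libraries, so they are not independent of each other.

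On balance these genes were low after IL-4, with a median log2 ratio of -2.17 for IL-4 against vehicle. Ifit1, an RNA-binding antiviral protein, read 70.1 and 84.8 CPM with vehicle, 4.83 and 3.86 CPM with IL-4 and 6.39 and 5.59 CPM with both agents, full-count library first. The log2 ratio of the means was 0.39, and limma gave 0.39 (95% interval -0.15 to 0.93, unadjusted p = 0.132). Both libraries with GW9662 were above both with IL-4, and all 4 were far under vehicle.

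Ifit3 read 5.11 and 3.14 CPM with IL-4 and 6.92 and 4.70 CPM with both agents. Within each counting kind the library with GW9662 was higher, but the groups overlapped. Iigp1, an interferon-induced GTPase, read 0.644 and 0.483 CPM against 1.21 and 1.29 CPM, with no overlap, and had the fourth smallest p of all genes (0.0574 unadjusted, limma difference 0.53, 95% interval -0.02 to 1.07). Oasl2, a member of the oligoadenylate synthetase family, read 68.3 and 81.9 CPM against 95.9 and 82.9 CPM. Its log2 ratio was 0.48 in the full-count and 0.02 in the reduced-count pair. Isg15, whose promoter is printed above, read 17.2 and 17.9 CPM against 21.7 and 18.2 CPM, with ratios of 0.32 and 0.02. For Oasl2 and Isg15 nearly all of the difference lay in the full-count pair, while Ifit3 and Iigp1 were higher in both pairs.

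**Figure D5:**
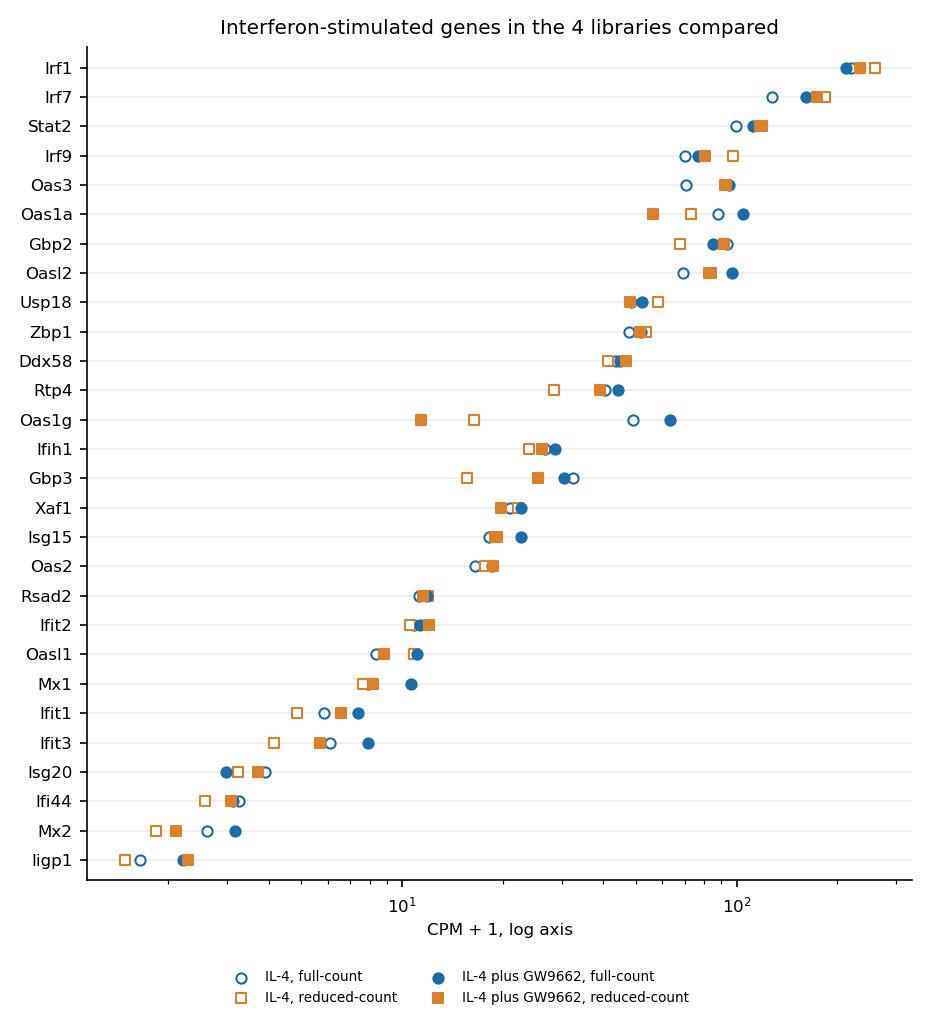
CPM plus 1 on a log axis for 28 of the 29 measured interferon-stimulated genes in each of the 4 libraries compared. Circles are full-count and squares reduced-count libraries, open for IL-4 and filled for IL-4 plus GW9662. For Ifit1 both filled symbols (6.39 and 5.59 CPM) lie above both open ones (4.83 and 3.86 CPM).

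Irf7, the transcription factor that amplifies the interferon response, read 126 and 182 CPM with IL-4 and 161 and 173 CPM with both agents, and the groups overlapped. Its vehicle libraries differed from each other, at 646 and 920 CPM, and the libraries with GW9662 alone read 581 and 687 CPM. Of the 6 members not above 0, Irf9 and Usp18 had log2 ratios of -0.09 each, with the full-count pair at 0.13 and 0.11. Irf1 was the 1 member of 29 lower in both pairs, with log2 ratios of -0.04 in the full-count pair and -0.14 in the reduced-count pair. Isg20, an antiviral exonuclease, was the lowest member of the full-count pair at -0.38. Among the 21 measured members with a RefSeq promoter there were 27 windows, and 10 of these (37.0%) held the interferon-response spacing, against 2.98% of all windows. The list was chosen for its response to interferon, so this share is no measure of an effect of GW9662. The STAT6 spacing was in 22.2% of the 27 windows, against 5.85% of all, and AGGTCA in 14.8%, against 14.0%.

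The libraries that received GW9662 without IL-4 stood on the other side. Against vehicle, 19 of 29 interferon-stimulated genes had both GW9662 libraries below both vehicle libraries, beside 12.4% of all genes, and 0 had both above, beside 15.5%. The list median of that comparison was -0.25. Both GW9662 libraries are reduced-count, and against the reduced-count vehicle library alone the median was -0.36. Isg15 read 80.4 and 84.4 CPM with vehicle and 63.4 and 58.0 CPM with GW9662 alone.

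Whether the IL-4 response differed with and without GW9662 was tested as an interaction. Limma on all 8 libraries called 0 of 10867 genes (0%), with 10 at an unadjusted p under 0.05. With counting kind as a term it called 2 of 10719 (0.0187%), and without the reduced-count IL-4 library as well it called 25 (0.233%), 19 of them higher and 6 lower. Of these 25, 9 were interferon-stimulated genes, all higher, led by Irf7 with 0.69 (adjusted p = 7.65e-08), Oasl2 with 0.59 and Ifit3 with 0.72. That fit has 2 residual degrees of freedom and gives every gene of a level the same spread, and the 9 interferon calls were made in none of the other fits run. The 2 genes called with all libraries, Saa3 and H2-Q10, differed between the vehicle libraries, full-count first, at 36.8 and 118 CPM for Saa3 and 73.1 and 6.00 CPM for H2-Q10. For Irf7, Oasl2 and Ifit3, the fit without the reduced-count IL-4 library put both agents above IL-4 by 0.25, 0.34 and 0.34. The interactions of these genes also count the levels with GW9662 alone against vehicle. By the authors' means, without a term for counting kind, those levels had log2 ratios to vehicle of -0.30, -0.22 and -0.59. These ratios are not from the fit, and do not add up with its estimates.

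The genes at the ends of the whole range were mostly of low level. Ear5, an eosinophil-associated ribonuclease of a family of near-identical copies, was the only gene beyond 2-fold, with a log2 ratio of 2.11. It read 0.460 and 0.0603 CPM with IL-4 and 8.42 and 0.444 CPM with both agents. The difference lay in 1 library, the full-count library with GW9662, and the other 3 were under 1 CPM. Rab39, a small GTPase of membrane traffic, had the next highest ratio at 0.70 and the smallest p. It read 1.29 and 0.664 CPM with IL-4 and 2.13 and 2.31 CPM with both agents, against 5.18 and 6.91 CPM with vehicle, and the groups did not overlap. Rn45s, the ribosomal RNA precursor, had 0.66 from means alone, and Ppp1r1a, an inhibitor of protein phosphatase 1, had 0.65. Gpr34, a lysophospholipid receptor that IL-4 lowers, read 1.29 and 0.784 CPM against 1.45 and 2.40 CPM.

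At the low end, 9930111J21Rik2 had -0.54 and Mlf1ip, a centromere protein, -0.53. Grin3b, a glutamate receptor subunit, read 1.20 and 1.27 CPM with IL-4 and 0.436 and 0.665 CPM with both agents. Pcx, pyruvate carboxylase, read 2.53 and 3.98 CPM against 2.28 and 1.73 CPM. Cers4, a ceramide synthase, read 3.91 and 4.59 CPM against 2.81 and 2.88 CPM. In all 3 the groups did not overlap and each library was under 5 CPM, and their limma intervals were -1.21 to 0.16, -1.17 to 0.20 and -1.01 to 0.12.

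The added fit with counting kind and without the library that stood apart called 8 of 10719 genes (0.0746%), 5 higher and 3 lower, with 883 at an unadjusted p under 0.05. They were chosen by that fit and not by the rule for named genes. The 5 higher were Ear5, Malat1, Lars2, Gstm1 and Pgls, and the 3 lower were Itgad, Saa3 and Irg1. In several, the libraries of the same group differed as much as the groups. Of the genes called, Itgad, Malat1, Saa3 and Irg1 are sensitive to counting. Itgad read 88.6 and 0.905 CPM with IL-4 and 91.7 and 0.577 CPM with both agents, full-count first. Its log2 ratio was 0.05 in the full-count and -0.27 in the reduced-count pair. The estimate of -1.15 from that fit is thus not a drop between the full-count libraries. Malat1, a nuclear long RNA, read 63.0 and 54.8 CPM with IL-4 and 70.1 and 102 CPM with both agents, while its vehicle libraries read 203 and 88.5 CPM. Lars2, the mitochondrial leucyl-tRNA synthetase, read 109 and 135 CPM against 112 and 229 CPM. Saa3 stood, full-count first, at 76.1 and 84.9 CPM with IL-4 and at 74.8 and 65.0 CPM with both, so the groups did not overlap and the log2 ratio was -0.02 in the full-count pair and -0.38 in the reduced-count pair. Its call came with the gap between the vehicle libraries given above. Gstm1, a glutathione transferase, read 103 and 133 CPM against 137 and 96.1 CPM, with ratios of 0.42 in the full-count and -0.46 in the reduced-count pair. Irg1 read 6.44 and 4.10 CPM against 4.70 and 4.30 CPM, with ratios of -0.39 and 0.06 in the same order. Its vehicle libraries read 6.65 and 20.9 CPM, full-count first.

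Genes picked from the other experiment of the series were followed here, without joining the tables. Of 552 genes beyond 2-fold higher when wild-type cells first met IL-4 for 3 h, 519 were measured, and their median log2 ratio with GW9662 was -0.01, with 0 beyond 2-fold. Of 409 genes beyond 2-fold lower, 369 were measured with a median of 0.03. Cells labelled as Pparg knockout had 50 genes over 1.5-fold lower than wild type in all 4 conditions of that experiment, after genes sensitive to counting were left out. Of these, 42 were measured here with a median of 0.03, -0.03 in the full-count and 0.17 in the reduced-count pair, and 0 were beyond 2-fold. The groups did not overlap for 2 of 40 separated genes, 1 higher and 1 lower, beside 6.15% and 5.14% of all genes. Htatip2 and Axl, a regulator of transcription and a receptor for dying cells, were named after their values were seen. Htatip2 was lower in the knockout-labelled cells by log2 differences of -3.41 to -2.66 and had -0.08 with GW9662. Axl had -2.90 to -1.26 in those cells and 0.05 with GW9662.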

How the data were processed

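Poly-A RNA was sequenced on an Illumina instrument, and the 4 groups of the antagonist experiment were used here with 2 libraries each. The authors deposited the signal of each group as the mean of its libraries in reads scaled to library size (CPM), with 1 column per group and no spread. The tools, per the submitters' processing notes, included Cufflinks 2.0.2 and TopHat2 2.0.7 with genome mm10, and the step that made the CPM is not given in the sources used here. Each averaged value was separated into 2 whole read counts, 1 per library, where a single pair of counts reproduced its digits. The libraries' replicate numbers are not known. Counting kinds were told apart by 211 genes of at least 5 CPM that share 50% or more of their sampled words of 50 bases with transcripts of other genes (GENCODE M21). Of the measured genes, 555 are sensitive to counting, through such shared words or a gap of more than 2-fold between the vehicle libraries.

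Genes with at least 1 CPM in either column entered. Ratios are log2 of the authors' means after adding 1 CPM to each, a scale on which low genes show too small a difference. The test was limma-trend (limma 3.58.1 in R 4.3.3). It took log2(CPM + 1) of all 8 libraries, with 1 weight per group, two-sided, with a Benjamini-Hochberg adjusted p under 0.05. Values that could not be separated entered as 1 observation of weight 2. The method was checked on simulated tables. Depth is given as reads per library in the results, and a floor of 3 reads covers counting error only. Python 3.11.15 was used for the remaining steps.

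Named genes are Pparg, all measured PPARγ targets, the 10 highest and 10 lowest ratios over all genes and among those without overlap, the 5 smallest p, and from each list its 3 highest levels and its extremes. Other genes are said to have been named later or illustrate a count. The members and the 28 lists were chosen with earlier results of these data known. Alternatives were the pseudocount, the filter, group weights, voom, counting kind as a term, 4 libraries only and leaving out each library. No column belongs to an unlisted sample. Values of 2 listed genes are not reported here.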

Additional observations from a re-analysis of the deposited data

How the results depend on the processing

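No paired analysis was possible because the averaged columns carry no replicate number for the libraries separated from them. The number of genes called, 0 in the results, was also 0 with voom, with no weights, with 4 libraries, with another pseudocount or filter and with counting kind as a term. It was 8 with counting kind and without the reduced-count IL-4 library. Leaving out 1 library gave 0 to 1880 calls, the highest without the full-count IL-4 library, which leaves the library that stood apart as the IL-4 group. The interaction had 2 calls with counting kind and 25 without the reduced-count IL-4 library as well. Genes beyond 2-fold higher numbered 4 with a pseudocount of 0.1, 0 with 5, 0 at a minimum of 5 CPM, 10 in the reduced-count pair and 0 to 324 with 1 library left out. Genes beyond 2-fold lower numbered 2 with a pseudocount of 0.1 and 0 to 258 with 1 library left out. The cause of these shifts was not tested. Of 162 alternative values of list medians, 154 stayed within the spread between libraries, as did 646 of 772 values of named genes, and 126 moved. The list medians that moved, full-count pair first, were class II genes (0.18), B cell markers (0.20 and -0.28), neutrophil and progenitor markers (0.15 and -0.13), eosinophil and mast cell markers (0.11 and -0.18) and, at a minimum of 5 CPM, fibroblast and endothelial markers (0.12). The B cell and the eosinophil values rest on 1 gene each.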
